A study of Mus musculus with 10 samples.

Results

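The genes that remodel nucleosomes, write and erase marks on histones, and methylate DNA were examined in neurons of the newborn mouse cortex that had lost Cdk7. CDK7 is the kinase of the general transcription factor TFIIH and of the CDK-activating complex, and it phosphorylates the tail of RNA polymerase II as transcription starts. The genes were taken by name: every row of the gene table whose symbol starts with Smarca to Smarce, Chd1 to Chd9, Arid1 to Arid5, Kdm, Kmt, Setd, Hdac and a number, Ezh1 or Ezh2, Dnmt, or is Tet1, Tet2 or Tet3, except Kdm5d. This gave 97 genes of the 55573 listed. The neurons lacking Cdk7 came from NexCre/+;Cdk7lox/lox, R26EYFP/+ pups (Cdk7 KO), and the neurons they were set against came from NexCre/+;Cdk7+/+, R26EYFP/+ pups (Ctrl). All pups were at postnatal day 3, and all carried both the NexCre allele and the EYFP reporter, so an effect shared by every carrier of NexCre is in both groups. Cre is expressed from the Nex (Neurod6) locus, which is active in newly postmitotic glutamatergic neurons of the cortex, and EYFP-positive cells were sorted from dissociated cortex. There were 5 libraries of polyadenylated RNA per genotype, each from 1 preparation of sorted neurons from 1 mouse.

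Chromatin remodelers are ATPases that slide, evict or exchange nucleosomes, and most work inside large complexes such as SWI/SNF (called BAF in mammals), ISWI and NuRD. Methyltransferases and deacetylases place or strip marks on histone tails, demethylases remove methyl marks, and DNMT and TET enzymes add and oxidise methyl groups on cytosine. In the developing cortex, a change of BAF subunits accompanies the step from dividing progenitor to neuron, and many of these genes are mutated in human neurodevelopmental disorders.

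Libraries held 23497621 to 31233466 counts. The 97 genes took 1.00% to 1.11% of the counts in Cdk7 KO libraries, against 0.959% to 1.15% in Ctrl libraries. Cdk7 averaged 5.16 ± 1.30 CPM (counts scaled by the total of the library, per 1000000) in Cdk7 KO libraries and 15.7 ± 4.00 CPM in Ctrl libraries (SD, n = 5 each), with no overlap, a log2 fold change of -1.54 that DESeq2 called (adjusted p = 2.25e-08) and edgeR's quasi-likelihood test did not (adjusted p = 0.161). Projection neuron markers (Neurod6, Neurod2, Slc17a7, Tbr1, Bcl11b, Fezf2 and Cux2) summed to 1507 to 1958 CPM in Cdk7 KO libraries, against 1257 to 1779 CPM in Ctrl libraries. Markers of other cells were also present in every library and none was at 0. The 9 astrocyte and radial glia markers summed to 173 to 790.4 CPM in Cdk7 KO libraries, against 735 to 1365 CPM in Ctrl libraries, and the 8 markers of proliferating cells summed to 115 to 208 CPM in Cdk7 KO libraries, against 199 to 274 CPM in Ctrl libraries. The 6 microglia markers summed to 41.9 to 133 CPM in Cdk7 KO libraries, against 80.7 to 264 CPM in Ctrl libraries. In such bulk samples, fewer cells of a type and less RNA per cell cannot be told apart.

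Relative to the other RNA of a library, chromatin genes differed little between Cdk7 KO and Ctrl neurons. For most, a difference of 1.5-fold lay outside the interval of the estimate. None of the 87 genes with enough counts for a test passed the edgeR test after Benjamini-Hochberg adjustment over 15578 genes. The background was 0.0% higher and 0.0% lower. By limma voom none passed either (0.0% and 0.0%), and DESeq2 called 1 gene, Chd7, as lower (3.32% of all genes lower, 0.26% higher). At an unadjusted edgeR p below 0.05 there were 2 genes higher in Cdk7 KO, Hdac2 and Smarcb1, where 4.9% of all genes were higher, and 4 genes lower, Chd7, Dnmt3a, Smarcd2 and Arid5a, where 10.5% were lower. No gene had Cdk7 KO values that all lay above or all below the Ctrl values, whereas this held for 0.61% of all genes upward and 2.41% downward.

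The intervals show how far the relative levels could differ. Levels were scaled within each library, so a change shared by all RNA of a neuron would not show and was not tested. For 75 of the 87 genes the 95% interval of the fold change lay wholly within 1.5-fold in either direction, against 58.6% of all genes tested. The median size of the log2 fold change, regardless of sign, was 0.0799 for these genes and 0.134 for all genes. The median standard errors were 0.108 and 0.150. Both measures depend on the level of a gene. No comparison was made with genes of like level, so whether these contrasts go beyond level was not tested. Only Chd7 and Arid5a had a log2 fold change beyond 0.5. The 12 genes with wider intervals were Arid5a, Chd7, Dnmt3b, Chd1l, Kdm8, Arid3a, Arid3b, Kdm4d, Smarcd2, Hdac9, Setd4 and the pseudogene Smarce1-ps1, whose reads cannot be told with certainty from those of Smarce1. Signs of the small differences depended on the scaling: 54 of 87 were positive with trimmed-mean (TMM) scaling, with a median of 0.03 beside 0.01 for all genes, and 36 were positive when libraries were scaled by their totals, with a median of -0.03 beside -0.04. With 1 surrogate variable 31 were positive, with a median of -0.04 beside -0.01. Of all 15578 genes, 8173 were positive with TMM scaling, 6327 with library totals and 7570 with 1 surrogate variable.

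**Figure D1:**
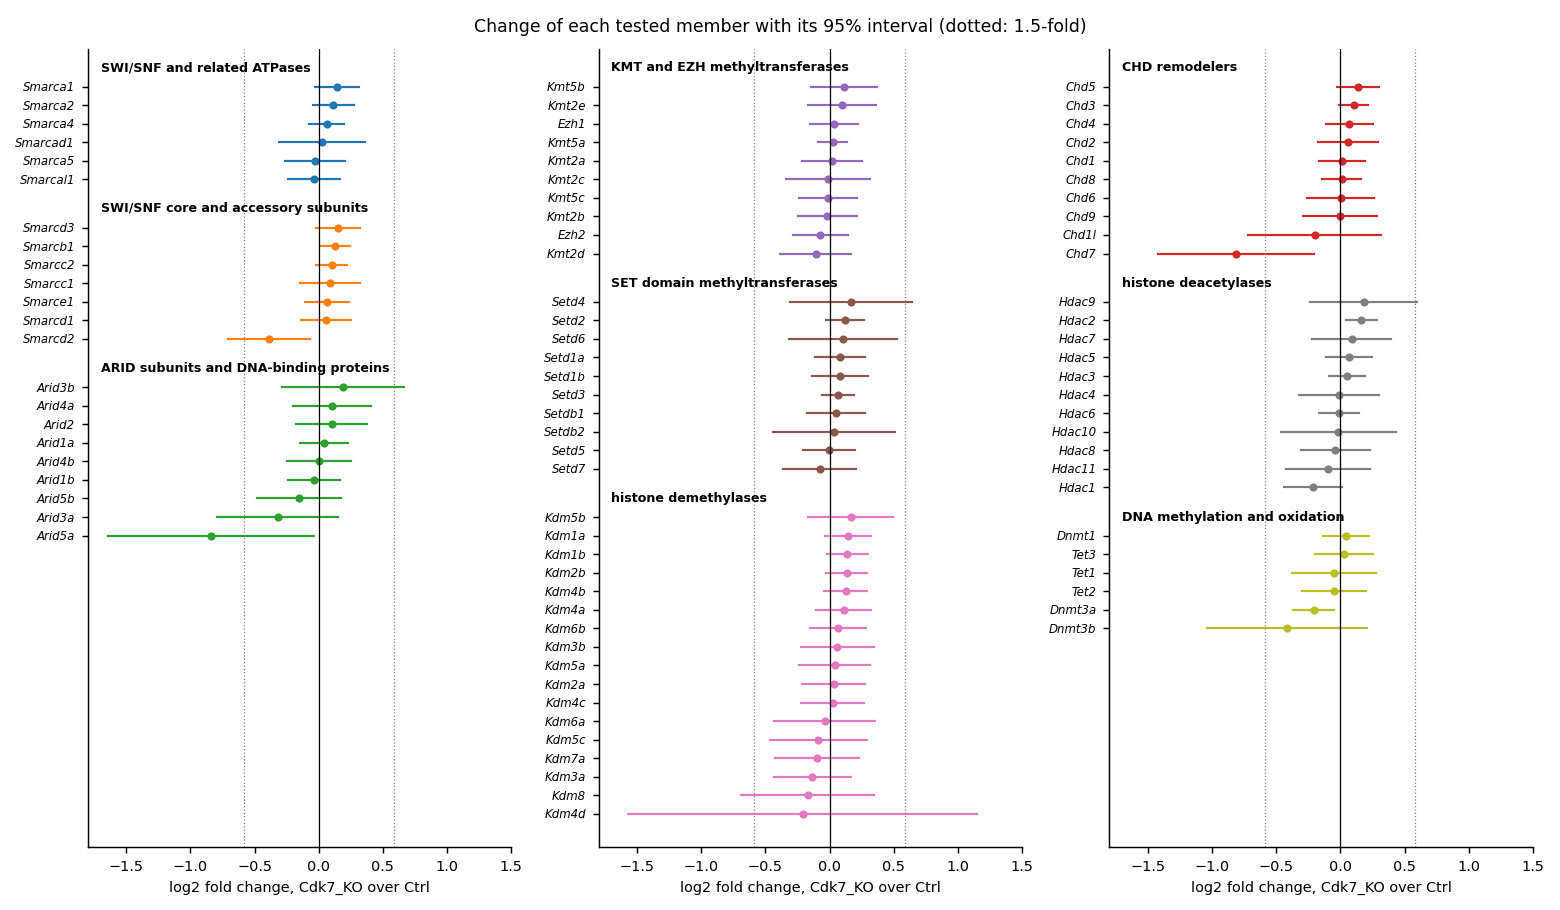
Log2 fold change (Cdk7 KO over Ctrl, horizontal axis) of the tested chromatin genes other than Smarce1-ps1, grouped by role, from the edgeR fit on 5 libraries per genotype; points are estimates, lines are 95% intervals and dotted lines mark 1.5-fold. Most intervals lie between the dotted lines, and the widest belong to genes of low level such as Kdm4d, Arid5a and Dnmt3b, and to Chd7.

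The remaining 10 genes had too few counts for a test. Dnmt3l-ps1, Dnmt3a-ps1 and Dnmt3aos had no count in any library. Over all 10 libraries Dnmt3l had 2 counts, Dnmt3c 4, Dnmt3bos 7, Arid3c 21, Kdm4dl 33, Kdm6bos 55 and Smarca5-ps 68. In all, 85 of the 97 genes averaged at least 1 CPM and 36 averaged at least 100 CPM.

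Upstream sequence is shown for the genes nearest to a difference that RefSeq's promoter table holds (Hdac2 and Smarcb1 on the higher side, Smarcd2 on the lower) and for Smarca4, whose mean level was nearly equal in both genotypes. Each run is the 250 bases before a RefSeq transcript start in mouse build GRCm38.p6, written 5′ to 3′ on the gene's strand, with capitals marking each GC box (GGGCGG or its reverse complement CCGCCC), the letters bound by Sp family factors.
Hdac2 (chr10:36974294-36974543, plus strand): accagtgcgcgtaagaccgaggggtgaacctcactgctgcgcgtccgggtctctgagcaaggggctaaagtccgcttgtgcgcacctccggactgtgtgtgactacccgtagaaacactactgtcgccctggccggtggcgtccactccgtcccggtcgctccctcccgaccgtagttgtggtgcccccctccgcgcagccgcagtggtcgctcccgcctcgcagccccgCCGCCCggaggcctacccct
Smarcb1 (chr10:75921615-75921864, minus strand): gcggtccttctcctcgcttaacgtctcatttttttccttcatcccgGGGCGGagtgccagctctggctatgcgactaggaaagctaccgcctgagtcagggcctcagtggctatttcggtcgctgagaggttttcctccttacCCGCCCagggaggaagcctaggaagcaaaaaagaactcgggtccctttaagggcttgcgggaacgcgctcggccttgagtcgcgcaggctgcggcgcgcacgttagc
Smarcd2 (chr11:106267633-106267882, minus strand): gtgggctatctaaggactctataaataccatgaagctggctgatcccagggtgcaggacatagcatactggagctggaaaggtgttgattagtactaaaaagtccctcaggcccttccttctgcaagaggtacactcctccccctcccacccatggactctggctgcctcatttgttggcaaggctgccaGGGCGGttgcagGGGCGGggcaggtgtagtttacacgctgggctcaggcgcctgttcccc
Smarca4 (chr9:21615919-21616168, plus strand): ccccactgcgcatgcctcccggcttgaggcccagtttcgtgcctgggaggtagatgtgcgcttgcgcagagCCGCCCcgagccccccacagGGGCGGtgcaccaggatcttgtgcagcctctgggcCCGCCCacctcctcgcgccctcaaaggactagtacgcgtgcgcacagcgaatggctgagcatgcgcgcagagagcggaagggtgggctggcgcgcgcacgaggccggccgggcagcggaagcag

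The Hdac2 run held 1 GC box and 27 CpG dinucleotides, Smarcb1 had 2 and 21, and Smarca4 had 3 and 25. The Smarcd2 run, which lies inside the annotated span of the gene, also had 2 GC boxes but only 4 CpG, and it held a match to TATAAA. RefSeq windows from 250 bases before to 50 bases after a start were found for 70 of the 97 genes, 96 windows in all. The median was 24 CpG per window, against 7 over all 32851 windows of the same length. A GC box on either strand was in 67.7% of the windows of these genes and in 35.7% of all windows. TATAAA or TTTATA was in 4.17% against 13.6%, and CCAAT or ATTGG in 37.5% against 37.4%. Of the 70 genes, 67 were tested here, whereas the background was not limited to tested genes. Whether these contrasts go beyond those of expressed genes was therefore not tested. Windows of alternative starts of a gene can overlap, and a match is a run of letters, not a bound site.

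No difference was detectable for the ATPases that drive SWI/SNF and ISWI complexes. Smarca4 (BRG1, chromosome 9, 21616169 to 21704230 in GRCm38), the main catalytic subunit of BAF in neural cells, had 523, 492, 494, 555 and 518 CPM in Cdk7 KO libraries, against 499, 508, 531, 488 and 543 CPM in Ctrl libraries. The groups overlapped throughout, with a log2 fold change of 0.06 (95% interval -0.08 to 0.20, edgeR adjusted p = 0.690). Smarca2 (BRM), the alternative BAF ATPase, averaged 418 ± 28.3 CPM in Cdk7 KO and 401.1 ± 26.2 CPM in Ctrl libraries (SD, n = 5 each), a log2 fold change of 0.11 (-0.05 to 0.27). The ISWI ATPases Smarca1 (SNF2L) and Smarca5 (SNF2H) had log2 fold changes of 0.14 (-0.03 to 0.31) and -0.03 (-0.26 to 0.21). The 6 ATPases of this kind, with Smarcad1 and Smarcal1, ranged from -0.04 to 0.14, and all 6 intervals lay within 1.5-fold.

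Among the shared subunits of BAF, Smarcb1 and Smarcd2 stood nearest to a difference, in opposite directions. Smarcb1 (BAF47, chromosome 10, 75896769 to 75921617), a core subunit that contacts the nucleosome, had 202, 196, 195, 202 and 190.2 CPM in Cdk7 KO libraries, against 178, 197, 186, 196 and 177 CPM in Ctrl libraries. Ctrl replicates 1, 4 and 6 lay below all Cdk7 KO libraries and the others among them, for a log2 fold change of 0.13 ± 0.05 (SE; edgeR adjusted p = 0.267). Smarcd2 (BAF60B, chromosome 11, 106263179 to 106272972), an alternative BAF60 subunit, had 11.2, 12.3, 12.8, 10.2 and 9.30 CPM in Cdk7 KO libraries, against 19.8, 14.7, 15.2, 12.7 and 13.4 CPM in Ctrl libraries. A single Cdk7 KO library, at 12.8 CPM, exceeded the lowest Ctrl library, and the log2 fold change was -0.39 ± 0.15 (SE; edgeR adjusted p = 0.237). Without Ctrl replicate 1 the Smarcd2 value was -0.27. Its paralogue Smarcd3 (BAF60C), the form prominent in neurons, averaged 106 ± 7.06 CPM in Cdk7 KO and 99.0 ± 10.4 CPM in Ctrl libraries (SD, n = 5 each), with a log2 fold change of 0.15 (-0.02 to 0.32). Smarcc2 (BAF170) had 0.10 (-0.02 to 0.22), and Smarcc1, Smarce1 and Smarcd1 ranged from 0.06 to 0.09.

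Genes for the other BAF subunits, which are not matched by the naming rule, were read from a list of 19. At an unadjusted edgeR p below 0.05, 4 were higher and 1 was lower (4.9% and 10.5% of all genes), and none passed after adjustment. A positive log2 fold change was held by 14 (13 with library totals and 12 with 1 surrogate variable). Of all 15578 genes it was held by 8173 (6327 with library totals and 7570 with 1 surrogate variable). Ss18l1 (CREST), a subunit of the neuronal form of BAF, had 180.5, 187, 169.6, 189.8 and 183 CPM in Cdk7 KO libraries, against 161, 162, 163, 157 and 166 CPM in Ctrl libraries. Every Cdk7 KO library lay above every Ctrl library, as for 0.61% of all genes. The log2 fold change was 0.22 ± 0.06 (SE, edgeR adjusted p = 0.163, DESeq2 adjusted p = 0.0517). Actl6b (BAF53B), the neuronal actin-like subunit, had 146, 172, 174, 164 and 144 CPM in Cdk7 KO libraries, against 145, 150.2, 148, 141 and 130.2 CPM in Ctrl libraries. The groups overlapped, and the log2 fold change was 0.22 ± 0.07 (SE; edgeR adjusted p = 0.184). The known progenitor and neuronal partners of the same slots were then looked up after those values had been seen. The neuronal Dpf1, Dpf3 and Bcl7a had 0.23, 0.23 and 0.20, and the progenitor forms Ss18, Actl6a and Phf10 had -0.52, -0.31 and 0.04. Dpf3, Actl6a and Phf10 were not past the unadjusted threshold (edgeR unadjusted p = 0.203, 0.109 and 0.559). Their relatives in the list, Dpf2, Bcl7b and Bcl7c, had -0.07, -0.02 and 0.13. Ss18 averaged 16.0 ± 3.83 CPM in Cdk7 KO and 23.9 ± 4.64 CPM in Ctrl libraries (SD, n = 5 each; edgeR adjusted p = 0.192). All 8 markers of proliferating cells and all 9 of astrocytes and radial glia also had negative log2 fold changes, with medians of -1.01 and -1.09, and their part in the Ss18 and Actl6a values was not tested.

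ARID proteins include the large targeting subunits of BAF and a set of DNA-binding factors. The BAF subunits Arid1a (BAF250A) and Arid1b (BAF250B), which exclude each other from a complex, had log2 fold changes of 0.04 (-0.15 to 0.23) and -0.04 (-0.24 to 0.16). Arid5a (chromosome 1, 36307733 to 36324029), a factor known for stabilising inflammatory messenger RNAs, had 1.84, 2.77, 3.12, 0.799 and 1.73 CPM in Cdk7 KO libraries, against 6.17, 3.27, 4.00, 3.57 and 1.92 CPM in Ctrl libraries. Ctrl replicate 6 lay among the Cdk7 KO libraries and the other Ctrl libraries above them, for a log2 fold change of -0.84 ± 0.37 (SE; edgeR adjusted p = 0.306). Without Ctrl replicate 1 it was -0.58. The 5 markers of endothelial and mural cells summed to 78.8, 114, 187, 37.7 and 107 CPM in Cdk7 KO libraries, against 833, 367, 141, 169 and 150 CPM in Ctrl libraries. Ctrl replicate 1, the highest of these, also held the highest Arid5a, Smarcd2 and Dnmt3b, and all 5 markers had negative log2 fold changes, with a median of -1.60. Their part in the values of those 3 genes was not tested. Arid3a and Arid5b had -0.32 (-0.79 to 0.15) and -0.15 (-0.48 to 0.17), and Arid2, Arid3b, Arid4a and Arid4b ranged from 0.00 to 0.19.

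CHD remodelers held both the most abundant chromatin gene and the single one that a tool called. Chd3 (Mi-2 alpha, chromosome 11, 69343273 to 69369406), a NuRD ATPase characteristic of maturing cortical neurons, had 990.3, 1082, 1009.6, 1066 and 1031 CPM in Cdk7 KO libraries, against 940.5, 1018, 1048, 989.5 and 1007 CPM in Ctrl libraries. The groups overlapped, with a log2 fold change of 0.10 (-0.01 to 0.22, edgeR adjusted p = 0.361). The other NuRD ATPases, Chd4 and Chd5, had 0.07 (-0.12 to 0.26) and 0.14 (-0.03 to 0.30). Chd1, Chd2, Chd6, Chd8 and Chd9 ranged from 0.00 to 0.06, and Chd1l had -0.20 (-0.72 to 0.32).

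Chd7 (chromosome 4, 8690406 to 8867659), whose loss of function causes CHARGE syndrome in humans, had 32.3, 16.3, 20.9, 9.80 and 15.3 CPM in Cdk7 KO libraries, against 27.4, 24.0, 46.3, 46.6 and 27.9 CPM in Ctrl libraries. Cdk7 KO replicate 1 lay within the Ctrl range and the other Cdk7 KO libraries lay below it. Chd7 averaged 18.9 ± 8.44 CPM in Cdk7 KO and 34.4 ± 11.0 CPM in Ctrl libraries (SD, n = 5 each), with a log2 fold change of -0.81 ± 0.28 (SE). It fell by the DESeq2 test (adjusted p = 0.0457) and did not pass by edgeR (adjusted p = 0.204) or limma voom (adjusted p = 0.198). The DESeq2 call held without Cdk7 KO replicate 1 (log2 fold change -1.09, adjusted p = 0.000276) and without Ctrl replicate 3 (adjusted p = 0.0380). It was lost without each of the other 8 libraries in turn (Cdk7 KO replicates 2, 3, 4 and 5 and Ctrl replicates 1, 4, 5 and 6), with DESeq2 adjusted p-values from 0.144 to 0.316.

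Levels of Chd7 by library stood beside levels of interneuron markers, which a projection neuron sort should remove. The 7 markers (Gad1, Gad2, Dlx1, Dlx2, Dlx5, Lhx6 and Slc32a1) summed to 225, 57.5, 113, 20.1 and 98.4 CPM in Cdk7 KO libraries, against 62.1, 125, 279.7, 315 and 196 CPM in Ctrl libraries. Cdk7 KO replicate 1 had the highest Chd7 and the highest interneuron sum of its genotype, and replicate 4 had the lowest of both. Ctrl replicates 4 and 5 were the highest of all libraries in both. Other libraries did not follow this order. Ctrl replicate 1 had the lowest Ctrl sum (62.1 CPM) with Chd7 at 27.4 CPM. Cdk7 KO replicates 2, 5 and 3, with sums of 57.5, 98.4 and 113 CPM, had Chd7 at 16.3, 15.3 and 20.9 CPM. The median log2 fold change of the 7 markers was -0.86, and all 7 were negative. Oligodendrocyte lineage markers summed to 528, 165, 220.2, 187 and 344 CPM in Cdk7 KO libraries, against 291, 316, 566, 859.9 and 531 CPM in Ctrl libraries. The part of these cells in the Chd7 difference was not tested.

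**Figure D2:**
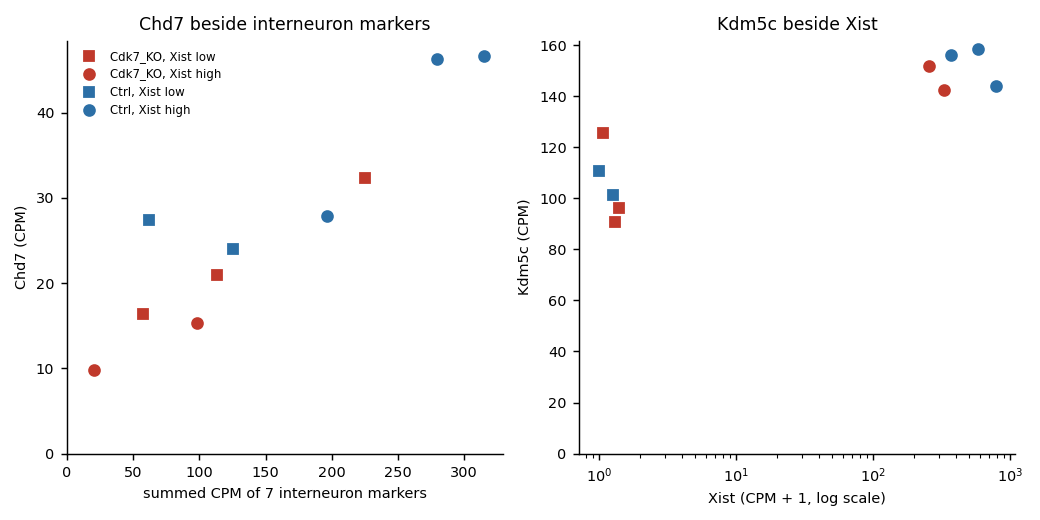
Left: Chd7 level (CPM, vertical axis) against the summed level of the 7 interneuron markers (CPM, horizontal axis) in each of the 10 libraries. Right: Kdm5c level (CPM) against Xist (CPM plus 1, log scale). Red is Cdk7 KO and blue is Ctrl; squares are libraries with low Xist and circles with high Xist. The libraries with the highest interneuron sums, Ctrl replicates 4 and 5, also have the highest Chd7. At low sums Chd7 differs, with 27.4 CPM in Ctrl replicate 1 (sum 62.1 CPM) and 16.3 CPM in Cdk7 KO replicate 2 (57.5 CPM). Kdm5c lies between 142 and 158 CPM at high Xist and between 90.7 and 126 CPM at low Xist.

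Histone deacetylases remove acetyl groups and are grouped into classes, of which class I (Hdac1, Hdac2, Hdac3 and Hdac8) works in NuRD, Sin3 and CoREST complexes. Hdac2 (chromosome 10, 36974544 to 37001889), the class I enzyme that predominates in neurons, had 284, 267, 280.1, 289.8 and 288 CPM in Cdk7 KO libraries, against 252, 259, 258, 261 and 276 CPM in Ctrl libraries. Apart from Cdk7 KO replicate 2 and Ctrl replicate 6 the groups were separate. The means were 282 ± 8.94 CPM in Cdk7 KO and 261 ± 8.74 CPM in Ctrl libraries (SD, n = 5 each), with a log2 fold change of 0.16 ± 0.06 (SE; edgeR adjusted p = 0.200). Its paralogue Hdac1, which is prominent in progenitors and glia, had 37.8, 30.1, 33.5, 24.8 and 30.7 CPM in Cdk7 KO libraries, against 37.4, 36.8, 43.3, 38.2 and 32.6 CPM in Ctrl libraries. The groups overlapped, and the log2 fold change was -0.21 (-0.44 to 0.01, edgeR adjusted p = 0.346). Per kilobase of exon, Hdac2 exceeded Hdac1 by 5.80-fold to 8.99-fold in Cdk7 KO libraries, against 4.59-fold to 6.51-fold in Ctrl libraries, so that the ranges overlapped. Other deacetylases ranged from -0.09 (Hdac11) to 0.18 (Hdac9, -0.23 to 0.60), with Hdac3 at 0.05 and the class IIa genes Hdac4, Hdac5 and Hdac7 at -0.01, 0.07 and 0.09.

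**Figure D3:**
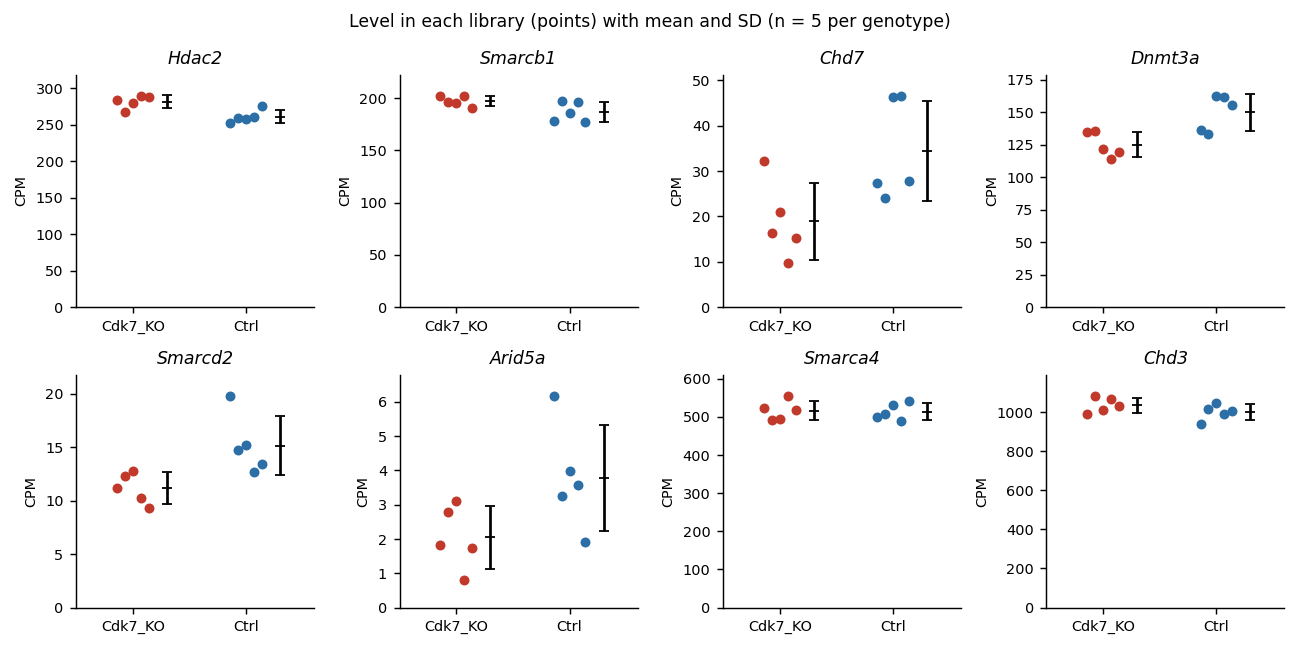
Level (CPM, vertical axes starting at 0) of 8 genes in each library, Cdk7 KO in red and Ctrl in blue, with the mean and SD of 5 libraries beside the points. Smarca4 and Chd3 overlap throughout, Hdac2 and Smarcb1 lie slightly higher in Cdk7 KO, and Chd7, Dnmt3a, Smarcd2 and Arid5a lie lower there with at least 1 library across the gap.

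The complexes that hold these deacetylases were read from 20 partner genes of NuRD, Sin3 and CoREST, of which none was higher and 2 were lower at an unadjusted edgeR p below 0.05, a share of lower genes near that of all genes (10.5%; 4.9% higher). Those 2 were Gatad2a and Rest. Gatad2a, a NuRD subunit, had 67.7, 66.7, 62.7, 62.2 and 61.6 CPM in Cdk7 KO libraries, against 76.2, 75.3, 73.4, 77.2 and 73.2 CPM in Ctrl libraries. Every Cdk7 KO library lay below every Ctrl library, as for 2.41% of all genes. The log2 fold change was -0.17 ± 0.05 (SE, edgeR adjusted p = 0.187). Rest, the repressor of neuronal genes in other cells, averaged 3.89 ± 1.76 CPM in Cdk7 KO and 7.30 ± 2.17 CPM in Ctrl libraries (SD, n = 5 each), a log2 fold change of -0.85. Among 17 partners of ISWI, INO80 and other remodelers none was past the unadjusted threshold in either direction, and those with the smallest p were Hells at -0.56 and Baz1a at -0.51. None of 7 sirtuins, the deacetylases that use NAD, was past it either, with Sirt1 at 0.14 and Sirt2 at -0.11. Markers of astrocytes and radial glia and of proliferating cells were also lower (median log2 fold changes -1.09 and -1.01). Their part in the Rest, Hells and Baz1a values was not tested.

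The KMT2 proteins, most of which methylate histone H3 at promoters and enhancers within COMPASS complexes, had overlapping RNA levels in both genotypes. Kmt2a averaged 219 ± 17.0 CPM in Cdk7 KO and 224 ± 41.7 CPM in Ctrl libraries (SD, n = 5 each), a log2 fold change of 0.02 (-0.21 to 0.26), and the enhancer enzyme Kmt2d had -0.11 (-0.39 to 0.17). Kmt2b, Kmt2c and Kmt2e had -0.02, -0.01 and 0.10, and the histone H4 enzymes Kmt5a, Kmt5b and Kmt5c had 0.02, 0.11 and -0.01. Setd1a and Setd1b, which also form COMPASS complexes, had 0.08 each. Of 11 COMPASS partners 3 were higher and none lower at an unadjusted edgeR p below 0.05 (4.9% and 10.5% of all genes), none after adjustment. The signs were positive for all 11 by TMM scaling, for 10 with library totals and for 8 with 1 surrogate variable. Of all 15578 genes, 8173, 6327 and 7570 were positive in these settings. The smallest p-values there belonged to Ash2l, a core subunit of all COMPASS complexes, and Psip1, a chromatin reader that tethers menin, at 0.13 ± 0.05 and 0.13 ± 0.06 (SE; edgeR adjusted p = 0.260 and 0.277).

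Among the Polycomb enzymes, Ezh2, dominant in dividing cells, had 53.3, 51.9, 51.1, 52.1 and 49.3 CPM in Cdk7 KO libraries, against 47.9, 50.7, 73.6, 54.8 and 54.7 CPM in Ctrl libraries. The Cdk7 KO libraries lay close together inside the Ctrl range, with a log2 fold change of -0.07 (-0.28 to 0.14) that was 0.03 without Ctrl replicate 4. Ezh1, the form of postmitotic cells, had 0.04 (-0.15 to 0.22). Of 23 Polycomb partners 1 was higher, Bmi1 at 0.15, and 1 lower, Phf19, at an unadjusted edgeR p below 0.05 (4.9% and 10.5% of all genes). Phf19, an accessory subunit that reads methylated histone H3, had 1.49, 1.56, 2.07, 1.01 and 1.52 CPM in Cdk7 KO libraries, against 2.94, 2.66, 2.30, 4.31 and 3.03 CPM in Ctrl libraries. The groups did not overlap, as for 2.41% of all genes downward. DESeq2 called Phf19 as lower (adjusted p = 0.0264), as it did 3.32% of all genes. Phf19 did not pass by edgeR (log2 fold change -0.95, adjusted p = 0.167). Its DESeq2 call was not checked with 1 library left out. The part of proliferating and glial cells, whose markers were also lower, in the Phf19 value was not tested.

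Of the SET domain methyltransferases none was past the unadjusted threshold in either direction. Setd2, which marks transcribed gene bodies and travels with RNA polymerase II, averaged 130.0 ± 5.42 CPM in Cdk7 KO and 124 ± 10.1 CPM in Ctrl libraries (SD, n = 5 each), a log2 fold change of 0.12 (-0.03 to 0.27). Setdb1, the heterochromatin enzyme, had 0.05, Setd5 had 0.00 and Setd7 had -0.08, and the 10 SET genes as a group ranged from -0.08 to 0.17. Of 19 further histone methyltransferases 1 was higher at an unadjusted edgeR p below 0.05 (4.9% of all genes), Prmt1, the main arginine methyltransferase, at 0.14 (edgeR adjusted p = 0.256), and Prmt2 followed at 0.11. Of 10 acetyltransferases none was past it in either direction, with Kat2a at 0.17 and Hat1 at -0.23.

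Histone demethylases numbered 17, and none was past the unadjusted threshold in either direction. Kdm1b (LSD2) averaged 55.9 ± 2.05 CPM in Cdk7 KO and 52.6 ± 4.52 CPM in Ctrl libraries (SD, n = 5 each), a log2 fold change of 0.14 (-0.02 to 0.30), and Kdm2b, which brings Polycomb to CpG islands, had 0.13 (-0.03 to 0.29). Kdm1a (LSD1), part of CoREST, had 0.15 (-0.03 to 0.33). Kdm6a and Kdm6b, which remove the Polycomb mark, had -0.04 (-0.43 to 0.35) and 0.07 (-0.15 to 0.29). Kdm6b exceeded Kdm6a per kilobase of exon by 8.40 ± 1.09-fold in Cdk7 KO and 8.07 ± 1.97-fold in Ctrl libraries (SD, n = 5 each). The widest intervals in the group belonged to Kdm8 and Kdm4d, which were at or below 3.59 CPM in every library.

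Among genes of DNA methylation, Dnmt3a (chromosome 12, 3806007 to 3914443), the enzyme that places the new methylation of postnatal neurons, had 135, 136, 121, 114 and 119 CPM in Cdk7 KO libraries, against 137, 133, 163, 162 and 155 CPM in Ctrl libraries. Cdk7 KO replicates 3, 4 and 5 lay below every Ctrl library, and replicates 1 and 2 lay level with Ctrl replicates 1 and 3. The means were 125 ± 9.66 CPM in Cdk7 KO and 149.8 ± 14.1 CPM in Ctrl libraries (SD, n = 5 each), with a log2 fold change of -0.21 ± 0.07 (SE; edgeR adjusted p = 0.205, DESeq2 adjusted p = 0.152). Dnmt1, the maintenance enzyme, averaged 209.9 ± 18.8 CPM in Cdk7 KO and 211 ± 15.1 CPM in Ctrl libraries (SD, n = 5 each), a log2 fold change of 0.04 (-0.14 to 0.22). Dnmt3b, the early embryonic enzyme, was at 1.77 to 3.56 CPM in Cdk7 KO libraries, against 2.56 to 5.75 CPM in Ctrl libraries, a log2 fold change of -0.41 (-1.04 to 0.21) that was -0.16 without Ctrl replicate 1. Tet1, Tet2 and Tet3, which oxidise methylcytosine, had -0.05, -0.05 and 0.03. Of 9 readers and partners of DNA methylation 1 was lower at an unadjusted edgeR p below 0.05 (10.5% of all genes). This was Uhrf1, the partner of Dnmt1 at replication forks, with 10.7 ± 5.50 CPM in Cdk7 KO and 18.0 ± 4.00 CPM in Ctrl libraries (SD, n = 5 each). Its log2 fold change was -0.70 (edgeR adjusted p = 0.271). The part of proliferating and glial cells, whose markers were also lower, in the Uhrf1 value was not tested.

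Levels between genes were compared as CPM per kilobase of exon, and the first 3 places were the same in both genotypes. Chd3 was first at 123 ± 4.53 CPM per kilobase in Cdk7 KO and 119 ± 4.71 in Ctrl libraries (SD, n = 5 each), Smarcc2 followed at 107 ± 3.36 and 104 ± 5.05, and Smarca4 at 79.8 ± 3.94 and 79.4 ± 3.46. Hdac2, at 63.0 ± 2.00 in Cdk7 KO and 58.4 ± 1.95 in Ctrl libraries, and Chd4, at 59.1 ± 6.13 and 58.5 ± 4.60, came next. Hdac2 stood above Chd4 in Cdk7 KO and just below it in Ctrl libraries, by less than their spread in both, whereas Chd3, Smarcc2 and Smarca4 were separated from their neighbours by more than the SD. The order depends on the gene length used: with the longest basic transcript in place of all exons Smarca4 ranked at position 5, while Chd3 and Smarcc2 kept positions 1 and 2. Lowest among tested genes were Kdm4d, at 0.104 in Cdk7 KO and 0.125 in Ctrl libraries, and Arid5a, at 0.164 and 0.302.

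**Figure D4:**
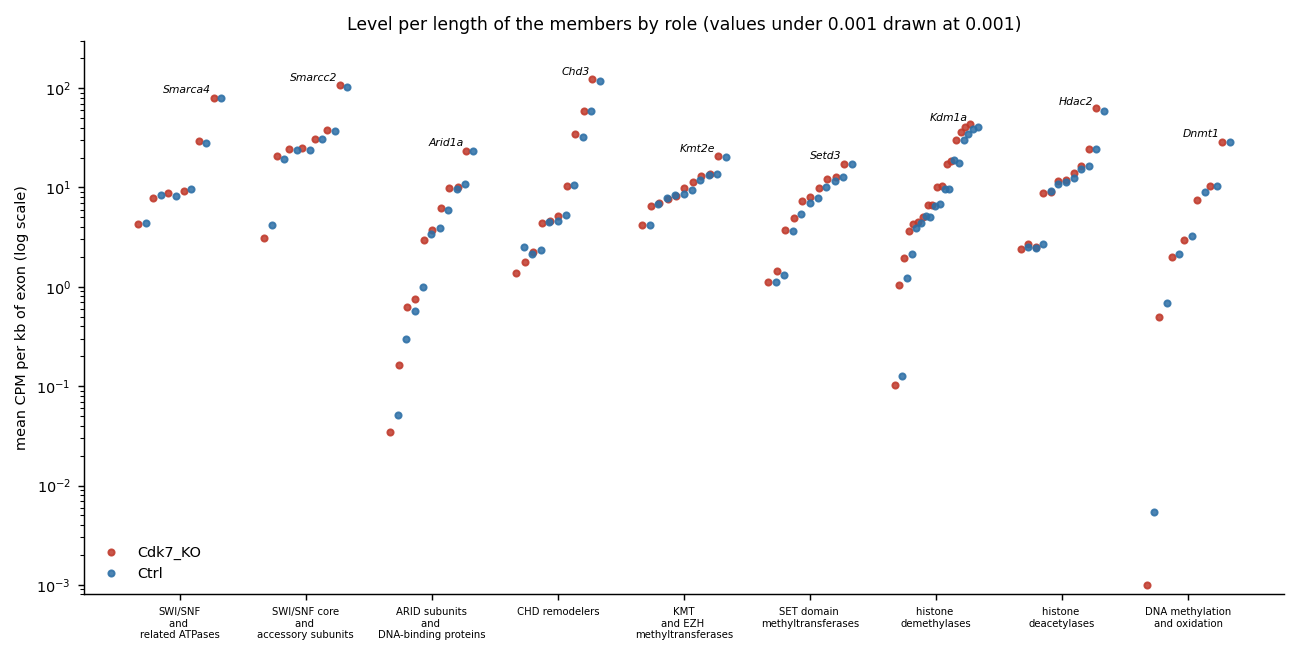
Mean level per kilobase of exon (CPM per kb, log scale) of the chromatin genes by role, with each gene drawn once per genotype, Cdk7 KO in red and Ctrl in blue, and the highest gene of each role named. Levels span from 123 (Chd3 in Cdk7 KO) to below 0.1, and the points of both genotypes fall beside each other at the high end.

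Ratios between paralogues also overlapped between genotypes in all pairs taken. Chd3 over Chd4 per kilobase was 2.10 ± 0.26 in Cdk7 KO and 2.03 ± 0.16 in Ctrl libraries (SD, n = 5 each). Smarca4 over Smarca2 was 2.73 ± 0.13 and 2.83 ± 0.13, although with the longest transcripts the ratio over all libraries was 1.17. Ezh2 over Ezh1 was 1.86 ± 0.17 in Cdk7 KO and 2.01 ± 0.38 in Ctrl libraries, and Dnmt1 over Dnmt3a was 3.81 ± 0.54 and 3.19 ± 0.20. Arid1a over Arid1b was 2.25 ± 0.14 in Cdk7 KO and 2.14 ± 0.14 in Ctrl libraries.

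The pups were of both sexes, which the labels do not give, and sex was read from Xist and the Y-linked Ddx3y. Xist was at 253 to 781 CPM in 5 libraries (Cdk7 KO replicates 4 and 5, Ctrl replicates 4, 5 and 6) and at 0 to 0.405 CPM in the other 5 (Cdk7 KO replicates 1, 2 and 3, Ctrl replicates 1 and 3), and Ddx3y was detected at 45.3 to 54.4 CPM in those 5 and at no more than 0.283 CPM in the high-Xist libraries. Of the X-linked chromatin genes, Kdm5c, known to escape X inactivation, had 142 and 152 CPM in high-Xist Cdk7 KO libraries and 144, 158 and 156 CPM in high-Xist Ctrl libraries. In low-Xist libraries it had 126, 90.7 and 96.3 CPM in Cdk7 KO and 111 and 101 CPM in Ctrl. High and low Xist libraries did not overlap, and the genotypes did within each, with a log2 fold change between genotypes of -0.09 (-0.46 to 0.29). Kdm6a, also an escape gene, had 35.5 and 35.2 CPM in high-Xist Cdk7 KO libraries and 42.5, 38.3 and 29.1 CPM in high-Xist Ctrl libraries, against 30.2, 24.7 and 26.2 CPM and 32.5 and 20.4 CPM in low-Xist libraries, so that its ranges overlapped. Smarca1, Hdac6 and Hdac8 overlapped as well.

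The genotype effect was also taken within each sex. In both genotypes the low-Xist libraries carried the lower replicate numbers. Sex therefore cannot be told apart from anything else that followed the numbering. In low-Xist libraries the median of the 87 genes was 0.13 and 69 (79.3%) were positive, beside a median of 0.02 and 53.7% over all genes. In high-Xist libraries the median was 0.01 and 45 (51.7%) were positive, beside -0.01 and 48.6%. In all, 32 genes (36.8%) were positive in the low-Xist libraries and negative in the high-Xist ones, beside 22.1% of all genes, and 8 (9.2%) stood the other way round, beside 17.0%. Chd7 had -0.13 in low-Xist and -1.58 in high-Xist libraries, and Dnmt3a had -0.03 and -0.36. The 7 interneuron markers had a median log2 fold change of 0.39 in low-Xist and -2.10 in high-Xist libraries. Oligodendrocyte lineage markers had 0.02 and -1.23, and astrocyte and radial glia markers had -0.87 and -1.94. Endothelial and mural markers went the other way, with -2.22 and -1.03. The part of any of these cells in the Chd7 and Dnmt3a values was not tested. Hdac2 had 0.13 and 0.22, Smarcb1 0.09 and 0.17, Smarcd2 -0.49 and -0.40, and Arid5a -0.86 and -1.22. At an unadjusted edgeR p below 0.05, 4 genes were higher and 7 lower in high-Xist libraries alone (background 6.92% and 12.3%), and 3 were higher and 1 lower in low-Xist libraries alone (2.27% and 8.19%). In a fit with an interaction of sex and genotype none of the 87 genes passed after adjustment (background 0.0%), the lowest edgeR adjusted p being 0.665, and 15 had an unadjusted p below 0.05, beside 7.34% of all genes. With sex as a factor 9 genes were higher and 5 lower at an unadjusted edgeR p below 0.05 (background 6.98% and 13.1%), among them Kdm1a, Kdm5b, Smarca2 and Smarcc2 on the higher side and Hdac1 on the lower, and none of the 87 passed after adjustment.

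**Figure D5:**
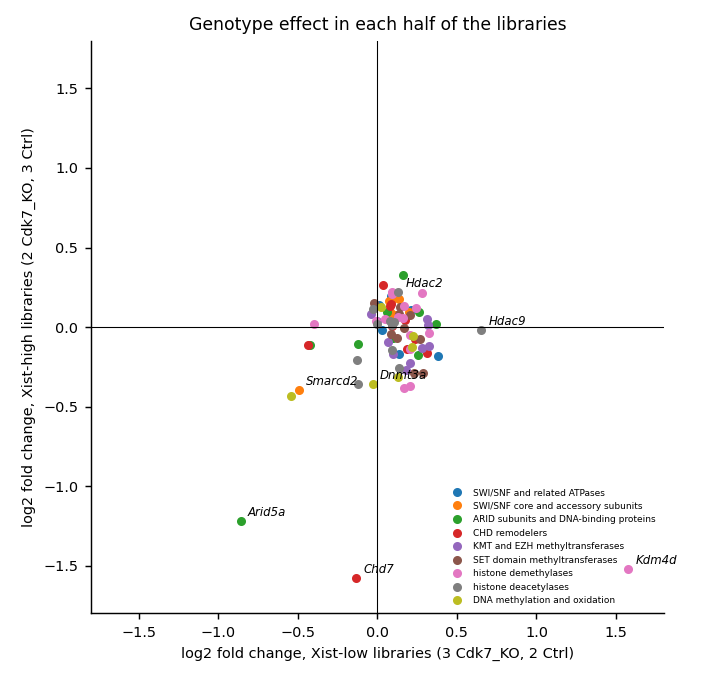
Log2 fold change (Cdk7 KO over Ctrl) of each tested chromatin gene in the low-Xist libraries (horizontal axis, 3 Cdk7 KO and 2 Ctrl) against the high-Xist libraries (vertical axis, 2 Cdk7 KO and 3 Ctrl), coloured by role. Most genes lie near 0 on both axes; Chd7 lies at -0.13 and -1.58, Arid5a at -0.86 and -1.22, and Kdm4d, a gene of very few counts, at 1.58 and -1.52.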

How the data were processed

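RNA was measured in 10 libraries of sorted cortical neurons, prepared with a directional polyadenylated RNA kit per the labels' protocols. The authors deposited 1 table of raw counts per gene for all libraries, made from coordinate-sorted alignments per the file headers. The submitters' processing notes name STAR, Salmon and build GRCm38; how counts were made, with which annotation and strand setting, is not given in the sources used here, so reads of a gene and an overlapping antisense gene may not be separated. Gene IDs were matched to GENCODE M21 (55394 of 55573) for coordinates and exon length.

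Counts were filtered with filterByExpr (minimum count 10), scaled by TMM and tested with edgeR 4.0.16's quasi-likelihood test in R 4.3.3, genotype alone in the model, with Benjamini-Hochberg adjustment over 15578 genes at 0.05. DESeq2 1.42.0, limma voom (limma 3.58.1), sva 3.50.0 and the settings of the closing section were alternatives, and the scripts were tested on simulated data. The interaction of sex and genotype, the leave-one-out runs of DESeq2 and the lengths from the longest transcript were added after seeing the data. CPM divides by the total counts of a library, so a ratio of CPM means differs slightly from a TMM-scaled fold change. The edgeR standard errors were derived from the log2 fold change and the F statistic of each gene. The 95% intervals of fold changes were built from these standard errors with the t distribution. No pair of libraries agreed within counting noise (chi-square per gene of at least 11.2).

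Libraries are separate mice. The genes, the partner and marker lists and the rule for named genes (the leading genes in either direction, paralogue pairs, any gene that a tool called and the highest levels; at most 2 partners per list) were chosen with earlier results of these data known. One projection neuron marker is not reported here.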

Additional observations from a re-analysis of the deposited data

Results flagged for a closer look

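In 66 groups of 5 libraries (33 genes in both genotypes), 4 held a library whose gap to its nearest neighbour exceeded Dixon's critical share of 0.71 of the group's range; chance flags about 1 in 20 such groups. Dnmt3b was at 5.75 CPM in Ctrl replicate 1, with the other Ctrl libraries at 2.56 to 3.43 CPM. Ezh1 was at 36.2 CPM in Cdk7 KO replicate 3, with the other Cdk7 KO libraries at 29.0 to 31.0 CPM. Ezh2 was at 73.6 CPM in Ctrl replicate 4, with the other Ctrl libraries at 47.9 to 54.8 CPM. Dnmt1 was at 185 CPM in Ctrl replicate 3, with the other Ctrl libraries at 213 to 222 CPM.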

How the results depend on the processing

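None of the chromatin genes was called after adjustment under any of the 22 alternatives except DESeq2, which called 1. The number higher at an unadjusted p below 0.05, 2 in the edgeR fit, was 1 with library totals, 1 with a minimum mean of 1 CPM, 1 with no filter, 4 in high-Xist libraries alone and 9 with sex as a factor. It ranged from 0 to 6 with 1 library left out, being 0 without Cdk7 KO replicate 4, 4 without Cdk7 KO replicate 3, 1 without Ctrl replicate 1 and 6 without Ctrl replicate 6. The number lower, 4 in the edgeR fit, was 7 in high-Xist and 1 in low-Xist libraries alone, and ranged from 2 (without Cdk7 KO replicate 5 or Ctrl replicate 1) to 5. The median log2 fold change was 0.13 in low-Xist libraries alone, -0.04 with 1 surrogate variable and -0.03 with library totals, and ranged from -0.02 (without Ctrl replicate 3) to 0.07 with 1 library left out. Cdk7 passed with 1 surrogate variable (-1.75), DESeq2 (-1.54), no filter (-1.54) and sex as a factor (-1.43), and ranged from -1.68 to -1.44 with 1 library left out, passing only without Cdk7 KO replicate 1. The causes of these shifts were not tested. Shares of all genes are not given here for library totals, the other filters or 1 library left out. Whether the counts of chromatin genes moved with those of all genes was therefore not tested. By DESeq2, the number of all genes called ran from 217 (without Ctrl replicate 1) to 844 (without Cdk7 KO replicate 3). With the replicate block 10 genes were higher and 5 lower at an unadjusted p below 0.05 (5.27% and 11.4% of all genes) and none was called. Same-numbered libraries had correlations of -0.10, 0.31, 0.14 and 0.17 between their deviations from the group means for numbers 1, 3, 4 and 5, so the numbers were not taken as pairs. Of the 33 named genes, up to 8 changed sign under an alternative (low-Xist libraries alone), none of them called. Limits are set by the low counts of genes such as Kdm4d and Arid5a, and by 5 mice per genotype.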

Other observations

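Kdm4d, a histone demethylase best known from the testis, stood on opposite sides in low-Xist and high-Xist libraries, a pattern chosen after its values were seen. In low-Xist libraries it had 0.520, 0.430 and 0.203 CPM in Cdk7 KO, against 0.128 and 0.128 CPM in Ctrl. In high-Xist libraries it had 0.0421 and 0.288 CPM in Cdk7 KO, against 0.484, 0.424 and 0.629 CPM in Ctrl. The groups did not overlap within either set, at 1 to 17 counts per library. The interaction of sex and genotype did not pass (edgeR adjusted p = 0.665). The share of all genes whose groups separate among so few libraries was not taken, so the separation cannot be weighed. Hdac9, a class IIa deacetylase, had 43.7, 43.3 and 29.8 CPM in low-Xist Cdk7 KO libraries, against 23.4 and 26.8 CPM in low-Xist Ctrl libraries. These groups did not overlap, again with no share of all genes to set beside it. Hdac9 did not pass in low-Xist libraries alone (edgeR adjusted p = 0.273). In high-Xist libraries it had 33.9 and 46.5 CPM in Cdk7 KO, against 43.0, 44.7 and 42.7 CPM in Ctrl, with overlap.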
